A study of Homo sapiens with 24 samples.

Results

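The genes described here are the numbered zinc finger (ZNF) genes of human chromosome 19, read in HEK293T cells given an inhibitor of O-GlcNAc transferase or of O-GlcNAcase. Members were all gene groups on chromosome 19 whose name is ZNF followed by a number and at most 1 letter, which gave 166 of the 13236 gene groups and 820 of the 164219 bins. The rule uses a gene's name and position and no measured value. A further 207 numbered ZNF genes lie on other chromosomes, and 805 other gene groups lie on chromosome 19. HEK293T is an established line derived from human embryonic kidney, and its RNA was read as polyadenylated, stranded libraries. In the OSMI-2 experiment the cells received 10 µM OSMI-2, which inhibits the transferase OGT, or the solvent DMSO. In the TMG experiment they received 5 µM TMG, which inhibits the O-GlcNAcase OGA (named MGEA5 in the tables), or DMSO. Both ran for 2 h and for 6 h, with 3 libraries in each of the 8 groups except OSMI-2 at 6 h, which had 2. All groups are the same line, grown on plates of 6 wells; the labels name Trizol and a column kit for RNA extraction without tying either to a library. The labels do not say that libraries of a group came from separate cultures, so the p-values measure only the spread between these libraries, which may be technical.

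A ZNF protein of this family carries a row of zinc fingers, small loops held by a pair of cysteines and a pair of histidines around a zinc ion, and each finger reads a few bases of DNA. Most of the chromosome 19 genes also encode a KRAB domain, which calls in a repressor complex that methylates histones and silences the sequence bound, very often a retroelement. OGT attaches N-acetylglucosamine to proteins of the nucleus and cytoplasm, among them many chromatin and splicing proteins, and OGA removes it.

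The members lay in 17 runs along the chromosome when genes less than 1000000 bases apart were joined. The longest run by number of genes, 39 of them from ZNF628 to ZNF446, covered chr19:55987700-58992600 (hg19), next to the end of the long arm. The next runs were 27 genes at chr19:52074532-54083526, 25 at chr19:36673185-38270230, 17 at chr19:44100545-45579688 and 16 at chr19:20959111-24312657. In proteins translated from the GENCODE v29 transcripts, a sequence profile found a KRAB domain in 136 members and not in 24, while 3 were unclear and 3 had no protein. This class was computed here and is not a reference annotation. Members with KRAB had a median of 13 fingers and members without it 8.50; ZNF91, with 33, had the most. The 2 classes also differed in base composition: the median GC content of the transcript was 42.1% with KRAB and 62.0% without. Members resemble each other and other genes in sequence, but the share of a member's 50-base windows also found in a transcript of any other gene that does not overlap it was small, with a median of 0.782% and more than 10% in 13 of 165 genes. The highest share was 33.3% in ZNF492 (29.4% with ZNF98). Of the genes over 10%, those named below are ZNF587 at 20.2% (19.6% with ZNF417), ZNF324B at 17.3%, ZNF302 at 13.7% and ZNF611 at 13.6%. Counts of genes with such shares may hold reads of their near copies.

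As an example of the coding sequence, a finger with its linker is printed for 5 members that the results turn on. Each unit is 84 bases of the GENCODE v29 transcript, 5′ to 3′, and the capitals mark the codons of the 2 cysteines and 2 histidines that hold the zinc.

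ZNF780B: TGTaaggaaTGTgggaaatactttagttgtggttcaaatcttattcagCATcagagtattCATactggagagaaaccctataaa

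ZNF587: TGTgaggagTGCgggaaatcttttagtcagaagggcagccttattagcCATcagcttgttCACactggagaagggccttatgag

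ZNF763: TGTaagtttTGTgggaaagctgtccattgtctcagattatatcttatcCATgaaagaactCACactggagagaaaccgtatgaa

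ZNF256: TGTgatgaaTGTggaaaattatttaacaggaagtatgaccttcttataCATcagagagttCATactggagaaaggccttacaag

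ZNF787: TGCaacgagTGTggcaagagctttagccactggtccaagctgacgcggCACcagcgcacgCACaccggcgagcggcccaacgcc

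The units agree at 32 to 59 of the 84 bases between pairs of genes, lowest between ZNF763 and ZNF787 (38.1%) and highest between ZNF587 and ZNF256 (70.2%). ZNF787, the only one of the 5 without KRAB, has 66.7% GC in its unit, against 34.5% in that of ZNF780B. The search that chose the units required the spacing of the zinc-binding codons and the start of the linker. Their agreement in all 5 is therefore not a result, and the shares of identical bases include these positions. The bases between the zinc-binding codons, which encode the DNA-reading residues, differ.

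Promoters, taken as 250 bases before to 50 after the start in RefSeq GRCh38.p14, were found for 149 members (185 starts). The 4 printed here belong to members named below for a rise or a fall: ZNF780B and ZNF587 had the largest rises from 2 h to 6 h of DMSO in the OSMI-2 experiment, ZNF256 the largest rise with TMG at 6 h, and ZNF428 fell from 2 h to 6 h of DMSO in both experiments. Capitals mark matches, on either strand, to the motifs searched, and matches that overlap are merged. The ETS core, a binding motif of factors common at housekeeping promoters, was searched as the letters CCGGAAG, in either direction. Letters for the other boxes were GGGCGG for the GC box, which factors of the SP family bind. For the E box of helix-loop-helix factors the letters were CACGTG, and the CCAAT box is spelled by its name.

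ZNF780B, chr19:40056182-40056481, minus strand: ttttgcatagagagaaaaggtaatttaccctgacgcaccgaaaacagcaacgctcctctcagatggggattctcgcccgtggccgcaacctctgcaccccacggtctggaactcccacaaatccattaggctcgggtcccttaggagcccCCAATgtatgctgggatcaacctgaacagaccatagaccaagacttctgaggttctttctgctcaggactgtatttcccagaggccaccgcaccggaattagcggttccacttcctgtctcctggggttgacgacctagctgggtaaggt

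ZNF587, chr19:57849609-57849908, plus strand: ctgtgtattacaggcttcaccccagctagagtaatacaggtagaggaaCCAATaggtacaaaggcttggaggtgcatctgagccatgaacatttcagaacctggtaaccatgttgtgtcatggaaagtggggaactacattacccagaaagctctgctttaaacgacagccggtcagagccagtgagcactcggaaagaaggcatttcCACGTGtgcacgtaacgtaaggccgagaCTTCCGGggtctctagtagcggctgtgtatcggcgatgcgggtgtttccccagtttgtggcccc

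ZNF256, chr19:57947657-57947956, minus strand: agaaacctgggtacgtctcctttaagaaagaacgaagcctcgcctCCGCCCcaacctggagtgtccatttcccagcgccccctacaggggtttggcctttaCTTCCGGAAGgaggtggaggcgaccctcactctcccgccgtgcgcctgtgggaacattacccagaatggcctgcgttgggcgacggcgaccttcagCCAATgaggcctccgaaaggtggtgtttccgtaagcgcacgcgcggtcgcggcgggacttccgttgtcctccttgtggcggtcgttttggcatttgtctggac

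ZNF428, chr19:43619580-43619879, minus strand: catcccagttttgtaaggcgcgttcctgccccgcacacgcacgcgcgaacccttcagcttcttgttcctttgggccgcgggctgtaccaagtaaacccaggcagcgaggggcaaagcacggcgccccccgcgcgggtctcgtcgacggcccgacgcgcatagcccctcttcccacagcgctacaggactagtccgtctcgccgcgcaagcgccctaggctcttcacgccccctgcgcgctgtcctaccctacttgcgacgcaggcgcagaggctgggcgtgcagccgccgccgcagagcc

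The ETS core was present in 39.5% of the member promoters and in 10.3% of all 35116 promoters of the same length. The CCAAT box was present in 44.9% against 34.6%, the GC box in 111 of 185 against 15786 of 35116, and the TATA box (TATAAA) in 3.24% against 11.5%. The cyclic AMP element (TGACGTCA) was present in 3.24% against 1.85% and the E box in 5.95% against 7.26%. Member promoters held a median of 21 CpG dinucleotides against 14 in all promoters. These are shares of windows that hold the letters, not of sites that are bound.

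Total counts ran from 39.5 M to 100.2 M (M, mega) per library. Of the HEK293T markers, 5 of 6 were above 1 CPM (counts relative to a library total of 1 M) in every library (VIM 306 to 787 CPM), while 2 of 9 markers of other cell types were in the tables, with COL1A1 at 6.28 to 20.4 and COL3A1 at 0.150 to 0.793 CPM. The members together took 0.0521% to 0.0601% of all counts in the 6 libraries at 2 h of the OSMI-2 experiment and 0.0921% to 0.111% in the 12 libraries of the TMG experiment. In the OSMI-2 experiment the 3 DMSO libraries at 6 h (called a, b and c, as in the tables) stood at 0.0886%, 0.0700% and 0.0645%, and the OSMI-2 libraries at 6 h at 0.0585% and 0.0657%. The rise in DMSO came from the KRAB genes, whose share was 0.0626% in library a, 0.0394% in b and 0.0358% in c, against 0.0245% to 0.0294% at 2 h. DMSO library a at 6 h also stood apart in base composition. The change of log2 CPM per 10 percentage points of GC was 0.44 in it, 0.82 to 1.11 in the other OSMI-2 experiment libraries and between -0.48 and -0.19 in the TMG experiment. The counts of called genes of the OSMI-2 experiment at 6 h, and the fold changes of the genes that lead them, are therefore also given without that library.

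**Figure D1:**
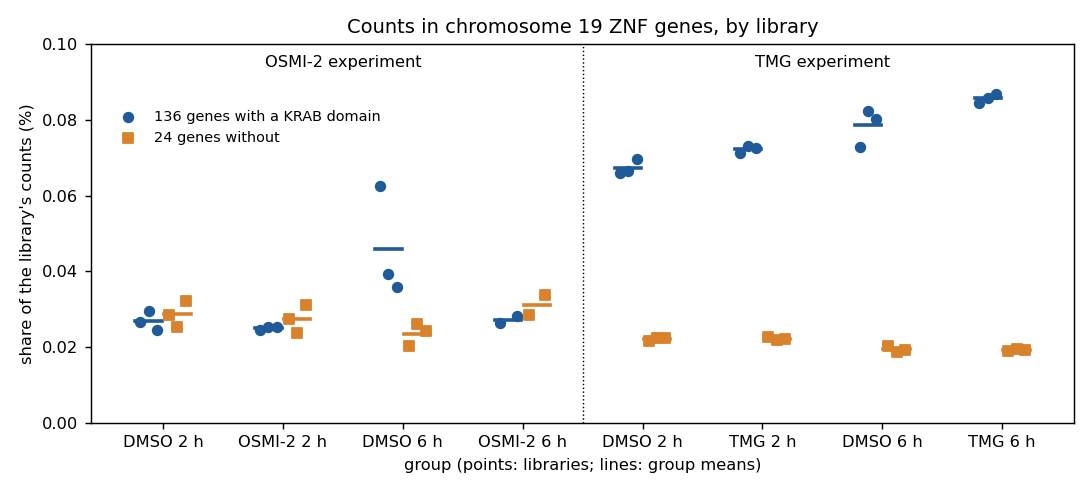
Share of all counts (percent, y axis) held by the 136 ZNF genes with a KRAB domain and by the 24 without it, 1 point per library, by group and experiment. DMSO library a at 6 h of the OSMI-2 experiment (0.0626%) is above the other libraries of its experiment for the KRAB genes, and the KRAB share of every library of the TMG experiment is above it.

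Per kilobase of exon, the KRAB genes were expressed at a low level. In DMSO at 2 h the median of the 136 KRAB members was 0.380 CPM per kb in the OSMI-2 experiment and 1.48 in the TMG experiment, against 4.08 and 4.18 for the 24 members without KRAB and 3.24 and 6.52 for all genes. ZNF428, a small protein with 1 finger, was the highest member in both, at 70.4 ± 9.77 and 33.2 ± 0.926 CPM per kb (SD, n = 3). In the OSMI-2 experiment ZNF414 (17.0 ± 2.58) and ZNF787 (17.0 ± 2.00) followed and did not differ beyond their spread. ZNF146, whose protein consists of fingers alone, came next in the TMG experiment at 25.9 ± 1.23, followed by ZNF791 at 13.5 ± 2.14 CPM per kb. The order of the members thus differed between the DMSO libraries of the 2 experiments, which were never tested against each other.

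The first comparison asked whether 2 h of OSMI-2 changed the ZNF genes. None of the 138 members tested passed an adjusted p of 0.05 in edgeR's quasi-likelihood test, with 0% of the 12343 genes tested called in all. In bulk RNA such as this, fewer cells that express a gene and less of its RNA per cell cannot be told apart. At an unadjusted p under 0.05 there were 6 members of 160 genes, and DESeq2 called 0 members. The median log2 fold change of the members was -0.11, beside -0.01 for all genes. ZNF256, which encodes a KRAB repressor, was at 1.13, 1.51 and 1.07 CPM in DMSO and at 0.602, 0.738 and 0.983 CPM in OSMI-2, a log2 fold change of -0.67 with a standard error of 0.26 that did not pass (edgeR adjusted p = 1). The groups of ZNF256 did not overlap, as was so for 18 of the 138 members tested and for 4.56% of all genes tested.

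After 6 h of OSMI-2, 18 of the 147 members tested differed from DMSO at 6 h: 12 were lower and 6 higher. The background over all 12484 genes was 4.94% called, 2.57% higher and 2.37% lower. The KRAB genes were mostly on the lower side, with 10 lower and 1 higher of 121, and the genes without KRAB mostly on the higher side, with 5 higher and 1 lower of 22. The median log2 fold change was -0.41 for the KRAB genes, 0.68 for those without KRAB and 0.15 for all genes. All 18 had groups that did not overlap, as did 99.7% of all genes called and 47.2% of all genes tested. In the 18 genes all 43 bins with a mean of at least 10 counts moved with their gene. The same held for 47 of 47 bins of the genes called with TMG at 6 h, for 20 of 23 at 2 h of TMG, and for 68 of 69 and 222 of 241 from 2 h to 6 h of DMSO in the OSMI-2 and TMG experiments. In the last of these, 38 of 54 genes had all such bins on the side of the gene. A gene's value is the sum of its bins, and some genes, such as ZNF772 and ZNF780B with OSMI-2, had 1 such bin. The agreement is therefore largely built in, and its share over all called genes is not given here. CPM printed beside a fold change are relative to the library size scaled for that comparison.

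ZNF772, a KRAB gene at chr19:57980952-57988938, fell most. It was at 4.42, 2.70 and 3.68 CPM in DMSO and at 1.13 and 0.563 CPM in OSMI-2, a log2 fold change of -2.11 (standard error 0.42, edgeR adjusted p = 0.00106). Both OSMI-2 libraries were below every DMSO library. ZNF763, a KRAB gene with 7 fingers in the run on the short arm, was at 7.19, 5.86 and 4.42 CPM in DMSO against 1.59 and 1.78 in OSMI-2 (log2 fold change -1.78 ± 0.40, adjusted p = 0.00382). ZNF587, which is known to bind and silence retroviruses of the HERV-K group, was at 8.30, 5.36 and 4.19 CPM against 1.57 and 2.20 (-1.65 ± 0.40, adjusted p = 0.00713). ZNF780B, whose protein has 21 fingers, was at 6.43, 3.20 and 3.00 CPM against 1.36 and 1.42 (-1.60 ± 0.40, adjusted p = 0.0103). In both ZNF587 and ZNF780B the highest DMSO value was that of library a, and the other DMSO libraries still lay above both OSMI-2 libraries.

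The other falls among the 8 largest were ZNF432 (-1.79), ZNF235 (-1.75), ZNF320 (-1.72) and the pseudogene ZNF833P (-1.55, from 12.2 ± 2.34 to 4.18 ± 0.253 CPM). ZNF331, an imprinted gene near the end of its run, fell by 1.46 on the log2 scale, from 2.47 ± 1.06 to 0.887 ± 0.395 CPM (adjusted p = 0.0235). ZNF44, ZNF211 and ZNF581 also fell, by 1.23, 1.28 and 1.46 on the log2 scale. ZNF581 was the 1 gene without KRAB among the 12.

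Most of the rises were of genes rich in GC. ZNF358, without KRAB and counted over 131 bases only, was at 0.627, 1.44 and 0.906 CPM in DMSO and at 2.43 and 2.40 in OSMI-2 (log2 fold change 1.28 ± 0.39, adjusted p = 0.0334). ZNF296, a partner of the pluripotency factor KLF4, was at 2.60, 4.71 and 3.74 CPM against 7.83 and 8.98 (1.19 ± 0.36, adjusted p = 0.0354). ZNF428, the member with the highest level, was at 31.9, 49.2 and 56.9 CPM against 82.1 and 98.4 (0.97 ± 0.30, adjusted p = 0.0346). In all 3 the lowest DMSO value was that of library a. ZNF414 rose by 1.05 and the KRAB gene ZNF616 by 1.28, level with ZNF358. ZNF837 was the sixth higher gene (1.79), with a mean under 50 counts, and it is named after its values were seen.

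Without DMSO library a, 37 of 144 members were called, 22 lower and 15 higher, against 42.4% of all 12435 genes, 34.2% higher and 8.21% lower. The number of called members thus rose with that of all genes, and their share was below it. The KRAB genes then gave 20 lower and 3 higher of 119, and the genes without KRAB 11 higher and 1 lower of 22. Of the ZNF genes without KRAB on other chromosomes, 39 of 94 were higher and 7 lower, or 41.5% and 7.45%. Of the other chromosome 19 genes, 354 of 745 were higher and 46 lower, or 47.5% and 6.17%. The rises of genes without KRAB are therefore not read as particular to the members. All 18 genes called with the library were also called without it, the falls between -1.92 and -0.94 and the rises between 0.81 and 1.75 on the log2 scale. The values were -1.92 for ZNF772, -1.56 for ZNF763, -1.28 for ZNF587 and -1.11 for ZNF780B. Of the rises, that of the KRAB gene ZNF616 was then the largest at 1.75, with 1.08 for ZNF358, 1.04 for ZNF296 and 0.81 for ZNF428. Leaving out DMSO library c left 9 (1.04% of all genes), and leaving out either OSMI-2 library left 0 members and 0% of all genes, where the lone OSMI-2 library is assumed to vary like the DMSO libraries. The split depends on the scaling: it was 9 higher and 11 lower with DESeq2's size factors in edgeR (5.68% and 1.87% of all genes), and 1 higher and 14 lower with TMM factors over genes alone (0.265% and 3.86%), which put the median of all genes at 0.30 and -0.09 in place of 0.15; DESeq2's own test gave 2 higher and 19 lower, among 101 and 628 of all genes. Set against that median, the KRAB genes were lower by 0.56 and those without KRAB higher by 0.53 on the log2 scale, and over the alternatives, libraries left out included, these gaps ran from -0.69 to -0.43 and from 0.26 to 0.66.

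After 2 h of TMG, 6 of 152 members were higher and 0 lower, against 7.91% called of 12361 genes, 1.25% higher and 6.67% lower. The median of the members was 0.05 and that of all genes -0.03 on the log2 scale. At an unadjusted p under 0.05 edgeR gave 26 members higher and 10 lower. DESeq2 called 8 higher and 0 lower after adjustment, and with DESeq2's size factors in edgeR the split was 5 higher and 1 lower. Shares of all genes are not given here for these settings, so the counts are not read as particular to the members. ZNF841, a KRAB gene of the run near ZNF331, was at 3.87, 3.63 and 3.49 CPM in DMSO and at 4.86, 5.77 and 5.11 CPM in TMG (log2 fold change 0.52 ± 0.12, adjusted p = 0.00647). ZNF17, a KRAB gene of the run at the chromosome end, was at 3.53, 3.12 and 3.66 CPM against 4.74, 5.08 and 4.79 (0.51 ± 0.12, adjusted p = 0.00816). The other rises were ZNF766 and ZNF587 (0.35 each), ZNF136 (0.34) and ZNF833P (0.33). In each of the 6 every TMG library was above every DMSO library; groups did not overlap in 96.1% of all genes called.

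After 6 h of TMG, 8 of 153 members were higher and 2 lower, against 6.03% called of 12103 genes, 1.19% higher and 4.84% lower. All 10 have a KRAB domain, and 0 of the 22 genes without KRAB were called by edgeR, with 3 at an unadjusted p under 0.05 and 0 by DESeq2. ZNF256 rose most: it was at 3.18, 3.86 and 3.48 CPM in DMSO and at 5.68, 5.87 and 6.05 CPM in TMG, a log2 fold change of 0.74 ± 0.12 (adjusted p = 0.00317). Its TMG libraries differed by less than its DMSO libraries did, and the groups were well apart. ZNF224, a repressor of the aldolase A gene, was at 9.39, 10.1 and 9.50 CPM against 12.9, 13.4 and 13.3 (0.45 ± 0.09, adjusted p = 0.00837). ZNF227, of the same run, was at 12.9, 12.1 and 11.6 CPM against 16.5, 17.1 and 16.4 (0.45 ± 0.08, adjusted p = 0.00679). ZNF45 of that run rose by 0.34, and ZNF567, ZNF136, ZNF17 and ZNF587 by 0.52, 0.47, 0.46 and 0.43. The run of 17 genes around ZNF224 thus held 3 of the 8 rises, and its median was 0.31 over the 16 genes tested, the highest of the 7 runs with 11 or more genes.

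The falls with TMG at 6 h were ZNF324B and ZNF554. ZNF554, at the outer end of the short arm, was at 6.70, 5.39 and 6.36 CPM in DMSO and at 3.94, 3.96 and 4.02 CPM in TMG (-0.63 ± 0.12, adjusted p = 0.00707). ZNF324B, a near copy of its neighbour ZNF324, was at 2.50, 2.60 and 1.75 CPM against 1.56, 1.21 and 1.23 (-0.77 ± 0.20, adjusted p = 0.0304). ZNF136, ZNF17 and ZNF587 were called higher at both times, 3 of the 6 rises at 2 h and 3 of the 8 at 6 h. No library is used in both of these comparisons. How many of all genes were called higher at both times is not given here, so this overlap is not read as particular to the members. Without TMG library b, 1 member was called at each time, beside 1.96% of all genes at 2 h and 0.731% at 6 h. With all 23 libraries in 1 fit 0 members were called at each time, beside 0% and 0.0157% of all genes. Leaving out TMG library c left 2 at 2 h (2.31% of all genes) and 5 at 6 h (1.56%), and leaving out DMSO library b left 1 at 2 h (5.22%).

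**Figure D2:**
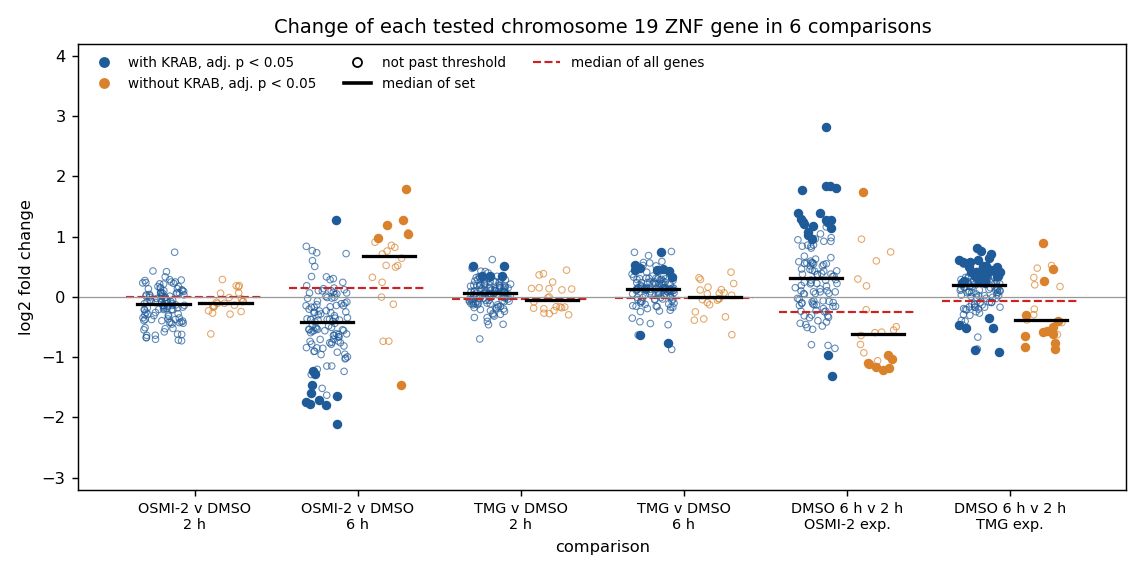
Log2 fold change (y axis) of every tested ZNF gene of chromosome 19 in the 6 comparisons (x axis), split by KRAB domain, with called genes marked. The KRAB genes lie mostly below 0 with OSMI-2 at 6 h (10 lower, 1 higher) and above 0 from 2 h to 6 h of DMSO in both experiments (18 higher and 2 lower, and 34 higher and 6 lower), and the TMG changes are small beside these.

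The libraries with DMSO alone also changed between 2 h and 6 h. In the OSMI-2 experiment, 29 of 141 members differed, 20 higher and 9 lower at 6 h, against 18.5% called of 12343 genes, 4.59% higher and 14% lower. The KRAB genes gave 18 higher and 2 lower of 116 and the genes without KRAB 1 higher and 7 lower of 22. The medians were 0.31, -0.62 and, for all genes, -0.25 on the log2 scale. These DMSO libraries at 6 h are the controls of the OSMI-2 comparison at 6 h, so values of the 2 comparisons are only set side by side. For the TMG experiment, 54 of 155 members differed, 38 higher and 16 lower, against 45.9% called of 12294 genes, 16.3% higher and 29.6% lower. There the KRAB genes gave 34 higher and 6 lower of 127 (median 0.20) and the genes without KRAB 3 higher and 10 lower of 23 (median -0.38), beside a median of -0.07 for all genes.

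ZNF780B rose most in the OSMI-2 experiment. It was at 0.397, 0.695 and 0.534 CPM at 2 h and at 5.79, 2.95 and 2.77 CPM at 6 h, a log2 fold change of 2.82 ± 0.38 (edgeR adjusted p = 4.02e-05). The TMG experiment already had it at 2.69, 3.05 and 3.10 CPM at 2 h and reached 3.88, 4.92 and 4.79 CPM at 6 h (0.62 ± 0.14, adjusted p = 0.000983). The rise was thus found in both, from different levels at 2 h. ZNF587 was at 1.44, 1.84 and 1.24 CPM at 2 h and at 7.47, 4.94 and 3.86 CPM at 6 h in the OSMI-2 experiment (1.85 ± 0.33, adjusted p = 0.000484). In the TMG experiment it was at 4.72, 5.22 and 5.30 CPM and then at 5.49, 6.70 and 6.08 CPM (0.26 ± 0.12), which did not pass (adjusted p = 0.0806). ZNF763 was at 1.49, 2.16 and 1.02 CPM against 6.47, 5.40 and 4.07 CPM in the OSMI-2 experiment (1.77 ± 0.33, adjusted p = 0.000791), and in the TMG experiment its log2 fold change was 0.38. ZNF331 rose by 1.81 in the OSMI-2 experiment and stood at 0.837 ± 0.0584 and 0.743 ± 0.167 CPM in the TMG experiment, where it was not called (adjusted p = 0.601). The remaining rises among the 8 largest of the OSMI-2 experiment were ZNF581 (1.73), ZNF833P (1.61), ZNF320 (1.39) and ZNF44 (1.29).

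Side by side with OSMI-2 at 6 h, ZNF780B, ZNF587, ZNF763, ZNF320 and ZNF833P were low in DMSO at 2 h, high in DMSO at 6 h and low in OSMI-2 at 6 h of the same experiment. For ZNF587 the mean was 1.51 ± 0.309 CPM in DMSO at 2 h in 1 comparison, and in the other 5.95 ± 2.11 in DMSO at 6 h and 1.88 ± 0.444 in OSMI-2. Since both comparisons use the same DMSO libraries at 6 h, these opposite signs are not independent of each other.

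Genes without KRAB made up most of the falls from 2 h to 6 h. ZNF296 was at 7.69, 6.95 and 8.98 CPM at 2 h and at 2.34, 4.34 and 3.44 CPM at 6 h in the OSMI-2 experiment (log2 fold change -1.22 ± 0.31, adjusted p = 0.00739). Its values in the TMG experiment were 4.61, 4.17 and 4.95 CPM and then at 3.10, 2.22 and 2.38 CPM (-0.83 ± 0.15, adjusted p = 8.59e-05). No library at 6 h reached a library at 2 h in either experiment. ZNF428 was at 101, 77.0 and 110 CPM and then at 28.7, 45.3 and 52.4 CPM in the OSMI-2 experiment (-1.19 ± 0.26, adjusted p = 0.00318), and its log2 fold change in the TMG experiment was -0.50. ZNF787 was at 55.7, 43.3 and 59.2 CPM and then at 15.7, 31.5 and 29.9 CPM (-1.04 ± 0.27, adjusted p = 0.00946), and in the TMG experiment it changed by -0.65 ± 0.11. ZNF653, which represses steroidogenic factor 1, changed by -1.16 and -0.61 in the 2 experiments, ZNF628 by -0.97 and -0.57, and ZNF414 by -1.10 and -0.30. ZNF579 (-1.11) and the KRAB gene ZNF616 (-0.96) completed the 8 largest falls of the OSMI-2 experiment.

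**Figure D3:**
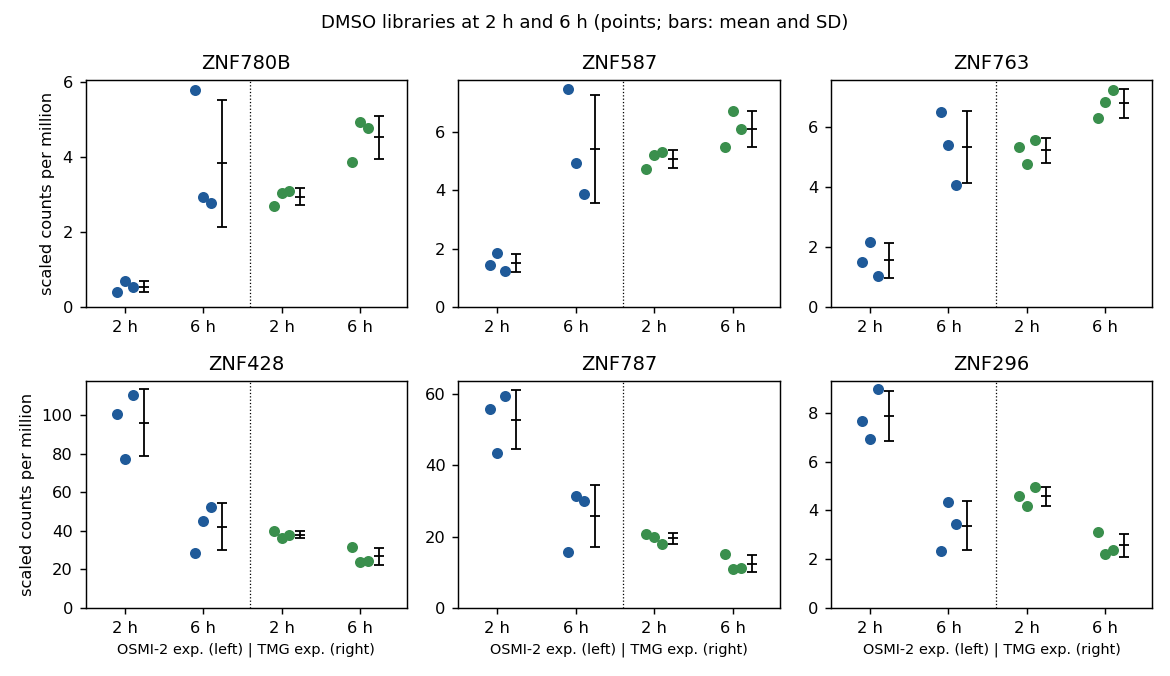
CPM (linear y axis from 0, scaled library size of each comparison) of 6 ZNF genes in the DMSO libraries at 2 h and 6 h of both experiments, 1 point per library with the group mean and SD. The KRAB genes ZNF780B and ZNF763 are called higher at 6 h in both experiments and ZNF587 in the OSMI-2 experiment, while in the TMG experiment ZNF587 did not pass (0.26, adjusted p = 0.0806). The genes without KRAB ZNF428, ZNF787 and ZNF296 are called lower in both.

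The largest rises of the TMG experiment were ZNF841, ZNF550, ZNF780B and ZNF568. ZNF841 was at 3.89, 3.66 and 3.51 CPM at 2 h and at 5.16, 7.52 and 5.54 CPM at 6 h (0.72 ± 0.14, adjusted p = 0.000213). ZNF550 was at 4.76, 5.46 and 5.21 CPM and then at 7.53, 9.14 and 7.51 CPM (0.65 ± 0.12, adjusted p = 9.87e-05). ZNF568, whose mouse counterpart silences a placental transcript of the growth factor gene Igf2, was at 3.10 ± 0.576 and then at 4.64 ± 0.301 CPM (0.59 ± 0.14). ZNF766 (0.58), ZNF470 and ZNF256 (0.52 each) and ZNF611 (0.50) followed. The largest fall was that of ZNF226, a KRAB gene of the run of ZNF224, which was at 6.01, 4.30 and 5.45 CPM and then at 2.37, 3.32 and 2.63 CPM (-0.92 ± 0.15, adjusted p = 3.74e-05). ZNF264, with KRAB, changed by -0.88, and ZNF536, a repressor in neuronal differentiation, by -0.87. ZNF574 fell from 23.6 ± 0.943 to 15.7 ± 2.87 CPM (-0.59 ± 0.10). Of the 54 called members, 50 had groups that did not overlap, as did 93.8% of all genes called in this comparison and 53.4% of all genes tested.

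The members called in both experiments were 11 rises, out of 20 in the OSMI-2 experiment and 38 in the TMG experiment, and 6 falls, out of 9 and 16. Of all genes, 18.5% were called in the OSMI-2 experiment and 45.9% in the TMG experiment. How many of all genes were called in both is not given here. The shared calls are therefore not read as particular to the members. The shared rises were ZNF224, ZNF302, ZNF320, ZNF529, ZNF550, ZNF581, ZNF726, ZNF763, ZNF780B, ZNF833P and ZNF841. The shared falls were ZNF296, ZNF414, ZNF428, ZNF628, ZNF653 and ZNF787, none of which has a KRAB domain. ZNF14 was higher in the OSMI-2 experiment (1.85) and lower in the TMG experiment (-0.52), and ZNF616 was lower in the first and higher in the second (-0.96 and 0.23). In the OSMI-2 experiment ZNF14 and ZNF726 each had 0 bins with a mean of at least 10 counts, so their calls there rest on low counts. The experiments share no library. ZNF14 is named after its values were seen, as are the shared genes outside the largest changes.

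Without DMSO library a at 6 h, the OSMI-2 experiment gave 20 higher and 12 lower of 138 members, against 8.24% of all genes higher and 29% lower, and the median of the KRAB genes was 0.01 in place of 0.31, beside -0.26 for all genes. Of the 29 genes called with the library, 27 were also called without it, all but ZNF14 and ZNF302; ZNF780B then changed by 2.42, ZNF587 by 1.57, ZNF763 by 1.63, ZNF428 by -0.96 and ZNF787 by -0.76. The number called fell to 11 (9 higher, 2 lower) without DMSO library a at 2 h, beside 4.15% of all genes, and to 14 (12 higher, 2 lower) without library c at 2 h, beside 7.28%. TMM factors over genes alone gave 23 higher and 1 lower (6.78% and 2.37% of all genes) and moved the median of all genes to 0.04, while DESeq2's size factors gave 20 higher and 14 lower (4.44% and 19.7%) with that median at -0.33. DESeq2's own test gave 29 and 6, among 1135 and 700 of all genes. Relative to the median of all genes, the KRAB genes were higher by 0.56 and the genes without KRAB lower by 0.36, with ranges over the alternatives of 0.27 to 0.72 and -0.60 to -0.18. In the TMG experiment those gaps were 0.28 and -0.31, the number called fell to 35 without DMSO library c at 6 h (36.2% of all genes), TMM over genes alone gave 50 higher and 13 lower (23.7% each of all genes), and DESeq2 46 and 11 (2901 and 2774 of all genes).

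The changes of members differed between classes of GC content, and all genes of a class did not always move the same way. Among genes under 45% GC, 96 members gave 1 higher and 9 lower with OSMI-2 at 6 h (median -0.52), while the 4094 genes of that GC class gave 64 higher and 97 lower (median 0.04). Among genes of 55% GC or more, 21 members gave 5 higher and 1 lower (median 0.73), and all 3686 genes gave 206 and 52 (median 0.42). From 2 h to 6 h of DMSO in the OSMI-2 experiment, the 91 members under 45% GC gave 17 higher and 2 lower (median 0.38) against 202 and 456 of 4044 genes (median -0.20). In the TMG experiment the 103 members of that class gave 31 higher and 4 lower (median 0.23) against 1137 and 609 of 4160 genes (median 0.06). The genes rich in GC fell in both, with 1 higher and 10 lower of 20 members in the TMG experiment (median -0.41) beside 190 and 1717 of 3536 genes (median -0.26). With DMSO library a left out, the members under 45% GC gave 3 higher and 16 lower of 94 with OSMI-2 at 6 h (median -0.18), beside 1799 and 220 of 4070 genes (median 0.45), and those of 55% or more 12 and 1 of 21 beside 1421 and 244 of 3682. From 2 h to 6 h of DMSO the members under 45% GC then gave 16 higher and 3 lower of 89 (median 0.19). All genes of that class gave 200 and 1725 of 4033 (median -0.49), the other direction. With each library's trend of log counts on GC removed, OSMI-2 at 6 h gave 5 higher and 34 lower members, beside 11% and 11.5% of all genes. The same correction gave 48 higher and 8 lower in DMSO of the OSMI-2 experiment, beside 19% and 19.5% of all genes.

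**Figure D4:**
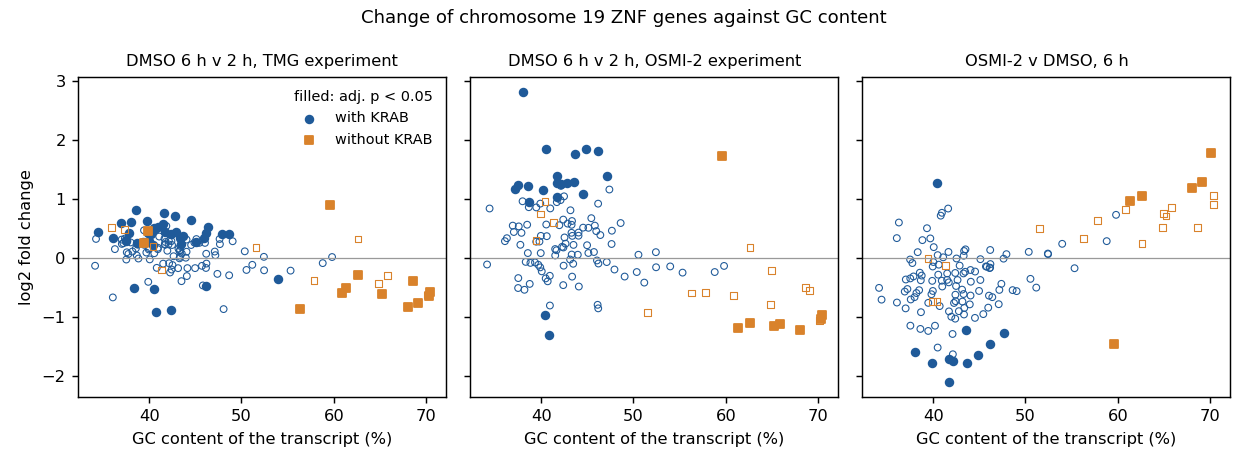
Log2 fold change (y axis) of each tested ZNF gene of chromosome 19 against the GC content of its transcript (percent, x axis) for DMSO 6 h against 2 h in the TMG and OSMI-2 experiments and for OSMI-2 against DMSO at 6 h, coloured by KRAB domain. The KRAB genes cluster around their median GC of 42.1% and the genes without KRAB around 62.0%; the cloud slopes down with GC in both DMSO comparisons and up with OSMI-2.

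Of the KRAB genes on other chromosomes, 0 of 84 were higher and 3 lower with OSMI-2 at 6 h (median -0.32), where the 3.57% lower is near the 2.37% of all genes. From 2 h to 6 h of DMSO, 17 of 83 were higher and 2 lower in the OSMI-2 experiment (median 0.30), or 20.5% and 2.41% beside 4.59% and 14% of all genes. In the TMG experiment 19 of 87 were higher and 8 lower (median 0.04), or 21.8% and 9.2% beside 16.3% and 29.6%. With DMSO library a at 6 h left out, OSMI-2 at 6 h gave 6 higher and 13 lower of the 84, or 7.14% and 15.5%. The KRAB members then stood at 2.52% and 16.8%, and all genes at 34.2% and 8.21%. From 2 h to 6 h of DMSO in that experiment, 17 of 82 were higher and 6 lower, or 20.7% and 7.32%. The KRAB members stood at 15.9% and 4.42%, and all genes at 8.24% and 29%. Both sets thus lay on the same side of all genes. Whether the chromosome 19 genes differ from the KRAB genes elsewhere was not tested. Along chromosome 19, the run of 27 genes that holds ZNF841 and ZNF766 gave 10 rises and 0 falls among 23 tested from 2 h to 6 h of DMSO in the TMG experiment, and its median was 0.24. The run of 39 at the chromosome end gave 6 rises and 6 falls among 36 (median 0.03). With OSMI-2 at 6 h the run of 11 genes that holds ZNF763 and ZNF44 gave 0 rises and 3 falls (median -0.56), and the run of 11 that holds ZNF358 and ZNF414 gave 2 rises and 0 falls with a median of -0.47. With DMSO library a left out the first gave 1 rise and 5 falls (median -0.50) and the second 2 rises and 3 falls (median -0.08).

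Of the 9 members described whatever their values, ZNF274, ZNF91, ZNF649, ZNF304 and ZNF146 were called in none of the 6 comparisons of groups, and ZNF331, ZNF224, ZNF382 and ZNF256 in 1 or more. ZNF274, which binds the 3′ ends of zinc finger genes and recruits the histone methyltransferase SETDB1, was in the TMG experiment at 13.6 ± 1.31 CPM in DMSO and 12.4 ± 0.417 CPM in TMG at 2 h, and with OSMI-2 at 6 h at 8.46 ± 2.12 and 8.91 ± 1.85 CPM. ZNF91, which represses SVA and LINE retroelements, lay under 1 CPM in every library and was too low to be tested in 2 of the comparisons. ZNF649, also a repressor of retroelements, was at 0.604 ± 0.247 CPM in DMSO at 2 h and 1.16 ± 0.592 CPM at 6 h in the OSMI-2 experiment (log2 fold change 0.95, adjusted p = 0.0881). ZNF304, which recruits repressors to tumour suppressor genes, was not called anywhere, and in TMG at 6 h it was at 0.846 ± 0.0707 CPM against 0.573 ± 0.156. ZNF382, described as a tumour suppressor, rose from 0.402 ± 0.118 to 0.672 ± 0.0746 CPM from the earlier to the later DMSO libraries of the TMG experiment (0.76, adjusted p = 0.0397). ZNF146 was at 22.7 ± 0.705 and 19.7 ± 1.44 CPM there (-0.20, adjusted p = 0.0531) and was not called in the other comparisons. ZNF224, named above, also rose in DMSO, by 1.15 in the OSMI-2 experiment and 0.41 in the TMG experiment.

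The 2 drug effects were compared directly, as the OSMI-2 effect minus the TMG effect. At 2 h none of 156 members differed in edgeR (0% of 12608 genes), with 19 members at an unadjusted p under 0.05 and 0 by DESeq2. Without DMSO library c of the OSMI-2 experiment, 3 members were called at 2 h. Shares of all genes are not given here for the unadjusted count, for DESeq2 or without that library. These counts are therefore not read as particular to the members. At 6 h 38 of 160 members differed, 14 higher and 24 lower with OSMI-2 relative to TMG, against 19.9% of 12563 genes, 16.9% higher and 2.97% lower. KRAB genes gave 4 higher and 22 lower of 130 and genes without KRAB 9 higher and 1 lower of 24. ZNF772 differed by -2.12 ± 0.37, ZNF587 by -1.91 ± 0.35, ZNF432 by -1.84 ± 0.42 and ZNF235 by -1.81 ± 0.41 on the log2 scale. ZNF358, ZNF296, ZNF324B and ZNF616 differed by 1.76, 1.73, 1.66 and 1.38. ZNF587 thus was lower with OSMI-2 and higher with TMG at 6 h, each against its own DMSO libraries. The drugs were given at different doses in separate experiments, so drug and experiment cannot be told apart here. The split was 22 higher and 8 lower with DESeq2's size factors in edgeR, 3 and 27 with TMM over genes alone, and 57 and 10 without DMSO library a of the OSMI-2 experiment, and 0 members were called without OSMI-2 library b. In that order, 41.9%, 3.71%, 73% and 0.0158% of all genes were higher and 1.26%, 4.53%, 2.02% and 0.158% lower. Without DMSO library a, 24 of the 38 genes kept their call, 14 of 14 higher and 10 of 24 lower; ZNF772 then differed by -1.52, ZNF587 by -1.13, ZNF432 by -0.88 and ZNF235 by -0.98, and ZNF358, ZNF296, ZNF324B and ZNF616 by 1.98, 1.99, 2.02 and 2.27. The median of all genes was 0.72 with DESeq2's size factors, 0.09 with TMM over genes alone, 0.88 without DMSO library a and 0.36 in the test itself. Relative to it, the KRAB genes were lower by 0.74 on the log2 scale, with a range over the alternatives of -0.88 to -0.61.

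Introns kept in the polyadenylated transcript, which the authors' bin classes mark as detained introns, were counted apart from their genes. Members hold 7 of the 4769: ZNF266_E009 (chr19:9530895-9544343), ZNF274_E006 (chr19:58718569-58721326), ZNF302_E004 (chr19:35173803-35174056), ZNF317_E006 (chr19:9267425-9267943), ZNF333_E009 (chr19:14817586-14818728), ZNF550_E003 (chr19:58055952-58057824) and ZNF653_E008 (chr19:11598719-11606764), all in hg19. They run from 254 bases in ZNF302 to 13449 in ZNF266. ZNF333_E009 also carries the class of an alternative last exon.

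With OSMI-2 at 6 h all 6 tested introns were lower, as were most introns of the transcriptome (86.9% of 4677 called, 86.3% lower and 0.599% higher). Their median was -1.31 and that of all introns -1.55 on the log2 scale. The intron of ZNF274 was at 2.95, 2.55 and 2.30 CPM in DMSO and at 0.523 and 0.777 CPM in OSMI-2 (-1.97 ± 0.33, edgeR adjusted p = 1.78e-08). The intron of ZNF266 was at 3.28, 2.86 and 1.77 CPM against 0.544 and 0.804 CPM (-1.94 ± 0.33, adjusted p = 2.46e-08). In both introns the OSMI-2 libraries were far below every DMSO library. The other 4 changed by -0.89 (ZNF317), -1.02 (ZNF333), -1.30 (ZNF653) and -1.32 (ZNF550).

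From 2 h to 6 h of DMSO in the same experiment all 6 were higher (90.3% of 4472 introns called, 88.5% higher, median 1.63 against 1.70 for all). The intron of ZNF266 went from 0.372, 0.454 and 0.243 CPM to 2.96, 2.63 and 1.63 CPM (2.76 ± 0.32, adjusted p = 3.85e-11), and that of ZNF274 from 0.198, 0.641 and 0.776 to 2.66, 2.35 and 2.12 CPM (2.14 ± 0.31, adjusted p = 1.27e-08). Set against its gene's counts outside detained introns, the ZNF274 intron stood at 2.80%, 9.02% and 10.5% in DMSO at 2 h. This ratio was 27.1%, 34.7% and 32.4% in DMSO at 6 h, and 6.89% and 7.61% in OSMI-2 at 6 h. The gene itself was not called. The ratio is not a share of a total that includes the intron. Relative to its gene, tested with limma, the intron changed in 4 of 6 cases in each of these 2 comparisons, those of ZNF266, ZNF274, ZNF317 and ZNF653. The share of all counts in detained introns was 0.756% to 1.21% in these DMSO libraries at 6 h and 0.239% to 0.276% at 2 h. Scaling by introns alone, which removes the shift shared by all introns, left 0 of 6 called with OSMI-2 at 6 h and 1 of 6 in DMSO, and DESeq2 gave the same counts. Without DMSO library a at 6 h, 5 of the tested introns were called in each of these comparisons. Shares of all introns are not given here for limma, for scaling by introns alone, for DESeq2 or without that library. The counts under them are therefore not read as particular to these introns.

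In the TMG experiment the introns of ZNF266, ZNF274, ZNF302 and ZNF333 rose from 2 h to 6 h of DMSO, 4 of 7 against 21.9% of 4095 introns, 21% higher and 0.904% lower. That of ZNF302 went from 0.148, 0.214 and 0.194 CPM to 0.419, 0.572 and 0.613 CPM (1.50 ± 0.36, adjusted p = 0.00201). The 4 calls became 1 without DMSO library c at 2 h or b at 6 h, and 2 without DMSO library b at 2 h or c at 6 h. With TMG at 2 h the ZNF266 intron rose by 0.92 (adjusted p = 0.0219, 1 of 6 against 9.81% of 4056 introns, 9.69% higher), with 0.441, 0.620 and 0.364 CPM in DMSO and 1.06, 1.14 and 0.559 CPM in TMG, groups that overlap; 0 introns were called without DMSO library a or c or TMG library a or b, and 2 without TMG library c. With TMG at 6 h edgeR called 0 of the 7 (0.19% of 4219, 0.166% higher and 0.0237% lower), and with OSMI-2 at 2 h 0 of 6 (0.129% of 3107); in both, 0 had an unadjusted p under 0.05 and DESeq2 called 0. Without DMSO library b, 1 intron was called with TMG at 6 h. Shares of all introns are not given here for fits with a library left out.

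**Figure D5:**
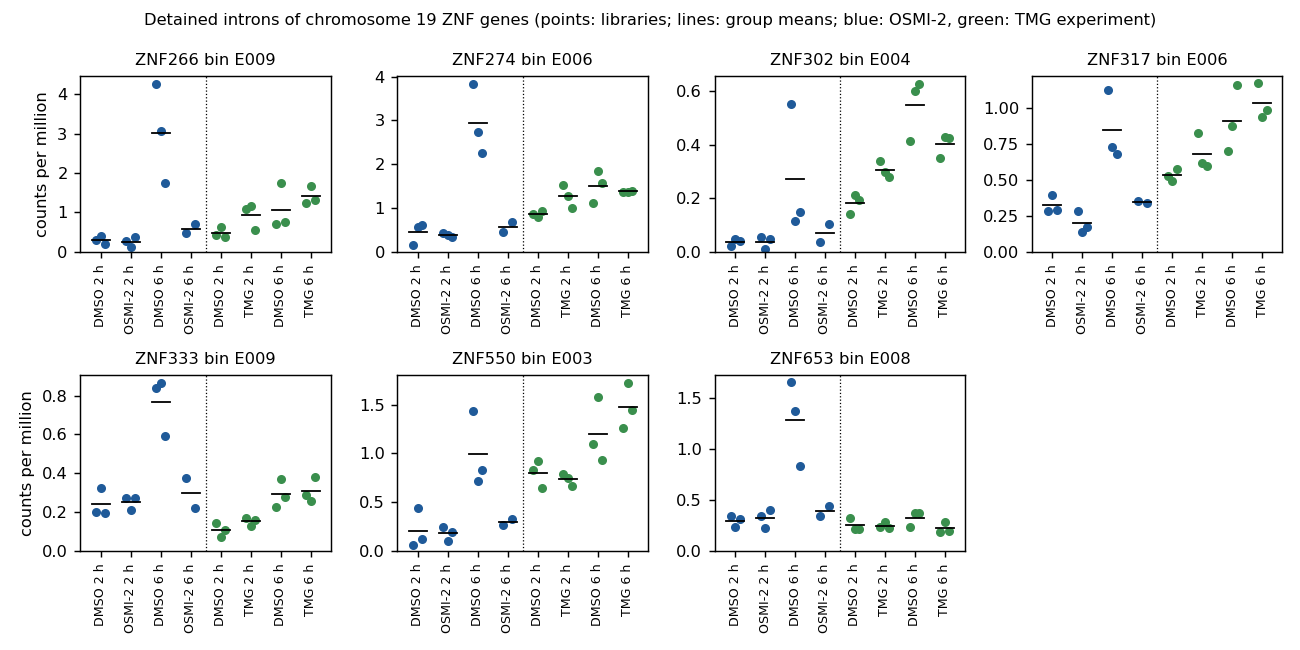
CPM (plain library total, y axis) of the 7 detained introns of the ZNF genes in each of the 8 groups, 1 point per library. The introns of ZNF266 and ZNF274 stand highest in DMSO at 6 h of the OSMI-2 experiment and low in OSMI-2 at 6 h, while that of ZNF302 stays under 1 CPM in every library and has its highest group mean in DMSO at 6 h of the TMG experiment.

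Of the genes whose products work with KRAB proteins, 20 of a list of 21 were in the tables, and the gene of the KRAB corepressor TRIM28 was not analysed here. None of the 20 was called by edgeR in either OSMI-2 comparison or between times of DMSO in that experiment, with 0, 1 and 4 at an unadjusted p under 0.05. DESeq2 called 0, 0 and 1. Without DMSO library a, edgeR called 10 higher and 1 lower of the 20 with OSMI-2 at 6 h, beside 34.2% and 8.21% of all genes, and 1 higher and 5 lower from 2 h to 6 h of DMSO, beside 8.24% and 29%. SETDB1 was not called in any of the 6 comparisons with all libraries, with 97.6 ± 0.568 and 97.2 ± 2.91 CPM in DMSO and TMG at 2 h. ATF7IP, the nuclear partner of SETDB1, rose with TMG at both times, from 31.9 ± 2.51 to 38.5 ± 0.608 CPM at 2 h (0.27) and from 46.9 ± 3.83 to 59.4 ± 1.66 CPM at 6 h (0.34, adjusted p = 0.0117). At 6 h of TMG the nucleosome remodeller CHD4 (-0.21) and MORC2 of the silencing complex HUSH (-0.27) fell, and at 2 h the DNA methyltransferase DNMT3A rose (0.24). In the DMSO libraries of the TMG experiment, 6 h against 2 h, 6 of the 20 partners rose, led by ATF7IP (0.52) and SMARCAD1 (0.36), and the heterochromatin protein gene CBX5 (-0.53) and the histone chaperone RBBP4 (-0.25) fell. These 8 calls of 20 are a share near the 45.9% of all genes called in this comparison. With TMG, 2 of the 20 were called at 2 h, beside 7.91% of all genes, and 3 at 6 h, beside 6.03%.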

How the data were processed

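Polyadenylated RNA of HEK293T cells was read in 24 samples of 8 groups, of which 23 libraries were used; the third OSMI-2 library at 6 h was not analysed here. The authors deposited 4 tables of raw counts per exon or intron bin, which have the columns of a DEXSeq result per the file headers; the submitters' processing notes name STAR and hg19. The counter, the annotation and the use of strand are not given in the sources used here, so antisense or overlapping genes cannot be told apart in these counts. How reads that span more than 1 bin were counted is not given either, so a sum over bins may count such a read more than once. No column of counts was left out of use, and the index read files were not used. Gene positions are hg19, and promoters are RefSeq GRCh38.p14. Fingers, KRAB class and GC content were computed from GENCODE v29 transcripts, matched by symbol for 165 of 166 members (12083 of 13236 genes). The longest open reading frames were translated. KRAB class came from a profile of 30 residues built on 181 ZNF sequences that matched a seed pattern. A score of 40 or more counted as KRAB, and -30 or less as none. Fingers were counted as matches to a pattern of cysteines and histidines.

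Bins without a detained intron class were summed to 1 value per gene, and detained introns were kept apart. Library sizes were totals of all bins (39.5 M to 100.2 M; M, mega) with TMM factors from genes plus introns. Separate fits for genes and for introns, each over the whole table and only on the groups compared, used edgeR 4.0.16 (filterByExpr, glmQLFit, glmQLFTest; R 4.3.3). The tests were two-sided, adjusted by Benjamini and Hochberg's method over all features tested, with a threshold of 0.05. Standard errors of log2 fold changes follow the ± sign beside a fold change, and SD over libraries beside a mean. Differences between drug effects were tested as an interaction contrast. DESeq2 1.42.0 and limma 3.58.1 served as alternatives. The edgeR test of genes was checked on simulated counts for OSMI-2 at 6 h, TMG at 6 h and DMSO of the TMG experiment. The other comparisons, the introns, the interaction contrasts, limma and DESeq2 were not checked in this way. The 22 pairs of libraries within groups differed by 4.27 to 297 in chi-square over degrees of freedom, so no pair counted as 1 sample.

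In each comparison the text names the 8 largest rises and falls (4 for introns and for differences between drugs) among called members that average 50 counts or more and whose groups do not overlap, and always ZNF91, ZNF649, ZNF274, ZNF331, ZNF224, ZNF304, ZNF382, ZNF146 and ZNF256; ZNF93, ZNF808 and ZNF558 were on that list and were not analysed here. The members, lists and tests were chosen with earlier results of these data known. Alternatives were another test, other scalings, no filter on low counts, all bins, GC correction, 1 fit of all libraries and leaving out each library.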

Additional observations from a re-analysis of the deposited data

Results flagged for a closer look

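The effects of OSMI-2 and TMG at 6 h differed in 38 of the 160 members tested, by edgeR's interaction contrast with Benjamini-Hochberg adjustment over all genes; that is 23.8% of them, beside 19.9% of all 12563 genes (members: 14 higher and 24 lower; all genes: 16.9% higher and 2.97% lower). Among the genes named by the rule, the OSMI-2 effect minus the TMG effect was 1.76 for ZNF358, 1.73 for ZNF296, 1.66 for ZNF324B and 1.38 for ZNF616 on the log2 scale. It was -2.12 for ZNF772, -1.91 for ZNF587, -1.84 for ZNF432 and -1.81 for ZNF235. The number of members called moved when a library was left out, and the share of all genes is not given here for every such fit. The count was 67 without DMSO library a at 6 h of the OSMI-2 experiment, where 75% of all genes were called, and 0 without OSMI-2 library b (0.174% of all genes), 11 without OSMI-2 library a, 9 and 17 without DMSO library a or c of the TMG experiment, and 13, 11 and 11 without TMG library a, b or c.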

How the results depend on the processing

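No paired analysis was possible because the columns of the tables are lettered, and no letter is tied to a replicate number of the labels. With 1 fit of all 23 libraries the members called were 52 with OSMI-2 at 6 h (20 higher, 32 lower), 0 with TMG at 2 h, 0 with TMG at 6 h, 67 from 2 h to 6 h of DMSO in the OSMI-2 experiment (42 higher, 25 lower) and 25 in the TMG experiment (21 higher, 4 lower), beside 47%, 0%, 0.0157%, 48.2% and 14.4% of all genes. Removing the GC trend gave 39 (5 higher, 34 lower), 2, 17 (12 higher, 5 lower) and 56 (48 higher, 8 lower) in the first 4 of these, and 59 (5 higher, 54 lower) for the difference between drugs at 6 h, beside 22.6%, 4.36%, 12.7%, 38.5% and 32.9% of all genes. For detained introns, DESeq2 gave 0 and scaling over introns alone 0 with OSMI-2 at 6 h, 1 and 1 in DMSO of the OSMI-2 experiment, and 0 and 1 in DMSO of the TMG experiment. With TMG at 2 h the 1 called intron was lost to 0 in the fit of all libraries, with DESeq2, with scaling over introns alone and relative to its gene. The causes were not tested.

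Under DESeq2 and under scaling over introns alone, in that order, 7 intron changes turned sign. With OSMI-2 at 6 h these were ZNF317_E006 (0.62 and 0.58), ZNF333_E009 (0.51 and 0.45), ZNF550_E003 (0.19 and 0.15) and ZNF653_E008 (0.22 and 0.18). From 2 h to 6 h of DMSO in the OSMI-2 experiment they were ZNF317_E006 (-0.84 and -0.83), ZNF333_E009 (-0.53 and -0.52) and ZNF653_E008 (-0.16 and -0.15). Both scalings centre on introns, which moved together.

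Leaving out 1 library at a time gave 0 to 0 members with OSMI-2 at 2 h, 0 to 37 with OSMI-2 at 6 h, 1 to 7 with TMG at 2 h, 1 to 13 with TMG at 6 h, 11 to 32 and 35 to 69 in DMSO of the OSMI-2 and TMG experiments, and 0 to 3 and 0 to 67 for the difference between drugs at 2 h and 6 h. For introns the ranges were 4 to 6 with OSMI-2 at 6 h, 0 to 2 with TMG at 2 h, 0 to 1 with TMG at 6 h, and 5 to 6 and 1 to 5 in DMSO of the OSMI-2 and TMG experiments. For the named genes and introns, 419 of these values kept their call and 163 lost it; under the other alternatives 528 kept it, 82 lost it and 14 changed sign. ZNF780B, ZNF587, ZNF331, ZNF763, ZNF581, ZNF833P, ZNF320 and ZNF428 kept their call under all 13 alternatives in DMSO of the OSMI-2 experiment. Shares of all genes are not given beside the ranges over left-out libraries, nor shares of all introns beside the intron counts under the alternatives. The low counts of many KRAB genes limit what could be tested, and 28 members were too low in the OSMI-2 comparison at 2 h.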
